A study of Mus musculus with 14 samples.

Results

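A set of 9 genes of the inflammasome and of lytic cell death was followed across mouse livers. They are Nlrp3, Pycard, Casp1, Casp4, Gsdmd, Casp8, Ripk3, Mlkl and Zbp1. They were chosen by name, as the sensor, adaptor, caspases, kinase and pore formers of pyroptosis and necroptosis, and each symbol matched 1 Ensembl gene, so that 9 of the 51912 gene rows are described. All 9 passed the filter on low counts. The livers came from 14 mice aged 20 weeks, untreated, with 1 library of total RNA per mouse from a piece of the left lobe. The 4 control libraries came from healthy WT littermate controls of genotype Tet2fl/fl cre-, which carry the floxed allele without the recombinase. The 5 asymptomatic and the 5 AIH libraries came from Tet2fl/fl vav cre+ mice. The asymptomatic mice were symptom free and the AIH mice had spontaneously developed autoimmune hepatitis. Vav drives the recombinase in blood-forming cells and their descendants, so hepatocytes keep the gene. In the design, AIH against control asks how diseased liver differs from healthy liver, asymptomatic against control asks what the genotype without symptoms does, and AIH against asymptomatic holds the genotype fixed.

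An inflammasome is a protein platform in which a sensor such as NLRP3 binds the adaptor ASC, the product of Pycard, and ASC brings in pro-caspase-1. Active caspase-1 cuts the precursors of the interleukins IL-1β and IL-18 and frees the pore-forming part of gasdermin D, and caspase-11, which mice encode in Casp4, cuts gasdermin D after binding bacterial lipopolysaccharide. Necroptosis is a separate lytic death in which RIPK3 phosphorylates MLKL, the nucleic acid sensor ZBP1 can engage RIPK3, and caspase-8 holds the RIPK1 and RIPK3 complex in check. In liver, macrophages and infiltrating myeloid cells are well supplied with these genes, whereas hepatocytes hold little Ripk3.

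Each library held 15968380 to 18915729 counts on genes, and a member had 13 to 1703 counts per library. Relative counting error is largest where counts are low. Over all libraries Nlrp3 had the fewest, with 13 to 107 per library. Summed over the controls, Casp4 had 96 counts, Nlrp3 107, Pycard 109 and Ripk3 122. Tet2 itself, read over the whole gene and in all liver cells, ran from 8.53 to 12 CPM (counts divided by TMM-scaled library size) in controls, 4.77 to 9.23 in asymptomatic livers and 7.34 to 15.4 in AIH livers, so that in this tissue its level does not check the deletion. By their Xist and Y-linked counts, controls 2 and 3 were female, controls 1 and 4 male, all 5 asymptomatic mice male, and all AIH mice female except AIH 4. The share of unaligned reads was 4.17% to 4.89% in controls, 4.93% to 9.27% in asymptomatic livers and 3.23% to 6.54% in AIH livers. By counts over all genes, asymptomatic 2 stood closer to a control library than to its own group. Library numbers 11 to 15 are all AIH and numbers 1 to 10 hold the other groups. Hepatocyte markers were abundant in every library, with a summed level of 88923 to 161942 CPM in AIH and 115019 to 159178 in controls, and none of 8 passed the test between those groups.

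The promoters of the 4 members whose AIH values lay above every other library, Pycard, Casp1, Casp4 and Ripk3, are shown to let the sequence upstream of the members with separated groups be read side by side. Each run is the 250 bases before the RefSeq start site on GRCm38.p6, written 5′ to 3′ on the gene's strand, with any match to a searched motif in capitals. The positions are chr7:127993868-127994117 (minus strand) for Pycard, chr9:5298267-5298516 (plus) for Casp1, chr9:5308599-5308848 (plus) for Casp4 and chr14:55788858-55789107 (minus) for Ripk3.
Pycard: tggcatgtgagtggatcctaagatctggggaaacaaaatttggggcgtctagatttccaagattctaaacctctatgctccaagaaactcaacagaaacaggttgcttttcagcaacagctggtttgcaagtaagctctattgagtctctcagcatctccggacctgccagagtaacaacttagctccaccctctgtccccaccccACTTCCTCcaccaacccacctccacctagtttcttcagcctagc
Casp1: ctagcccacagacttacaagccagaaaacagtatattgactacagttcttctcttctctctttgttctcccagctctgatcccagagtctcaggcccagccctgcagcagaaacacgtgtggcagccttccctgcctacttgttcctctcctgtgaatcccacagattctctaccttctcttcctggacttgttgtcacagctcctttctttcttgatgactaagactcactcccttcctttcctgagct
Casp4: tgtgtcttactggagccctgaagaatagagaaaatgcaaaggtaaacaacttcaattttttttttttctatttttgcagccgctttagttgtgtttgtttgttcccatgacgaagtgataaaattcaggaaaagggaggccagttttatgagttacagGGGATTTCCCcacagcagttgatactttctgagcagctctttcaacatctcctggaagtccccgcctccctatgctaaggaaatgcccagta
Ripk3: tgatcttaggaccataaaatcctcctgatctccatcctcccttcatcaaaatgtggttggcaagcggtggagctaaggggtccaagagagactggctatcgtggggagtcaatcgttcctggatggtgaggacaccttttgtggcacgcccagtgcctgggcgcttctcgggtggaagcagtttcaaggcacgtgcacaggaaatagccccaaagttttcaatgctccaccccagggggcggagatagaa
The search covered 4 motifs on both strands of the 300-base RefSeq windows (250 bases before the start site and 50 after), which were found for 7 members in 9 windows. They were the interferon-stimulated response element (GAAANNGAAA), the STAT site (TTCNNNGAA), the PU.1 site (GAGGAAGT) and the NF-kB site (GGGANTTNCC). Of 32544 promoters of that length, 3.45% hold the interferon element, 8.33% the STAT letters, 3.11% the PU.1 letters and 1.17% the NF-kB letters. Pycard held the PU.1 letters on the minus strand of the run, read as ACTTCCTC at position -44 from the start site. Casp4 held the NF-kB letters, GGGATTTCCC, at position -92 of the window shown. These matches are letters in a sequence and not measured sites, and no 2 motifs overlapped. None of the other members found (Nlrp3, Casp1, Casp8, Ripk3 and Mlkl) had a match in its window. No window was found for Gsdmd or Zbp1, so their promoters were not searched.

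In AIH livers, 7 of the 9 genes were higher than in controls: the adaptor Pycard rose most (12.1-fold), Casp4, Ripk3 and Casp1 followed (5.04-fold, 4.90-fold and 4.60-fold), and Zbp1, Nlrp3 and Mlkl rose less (3.54-fold, 2.32-fold and 2.1-fold). Gsdmd, which forms the pyroptotic pore, did not pass the test at 1.57-fold, and Casp8 stood at 0.912-fold. None of the 9 was called between asymptomatic and control livers. All p-values below without another name are from edgeR's quasi-likelihood F-test, two-sided, adjusted by Benjamini-Hochberg over 14638 genes, with a threshold of 0.05, and errors of log2 fold changes are standard errors. The 7 calls compare with a background of 21.7% of all genes called in AIH against control in either direction and 15.6% called higher. The members' median log2 fold change was 1.82, against -0.01 over all genes tested. The labels do not say that the libraries came from separate cages or litters, so p-values measure the spread between these 14 mice.

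**Figure D1:**
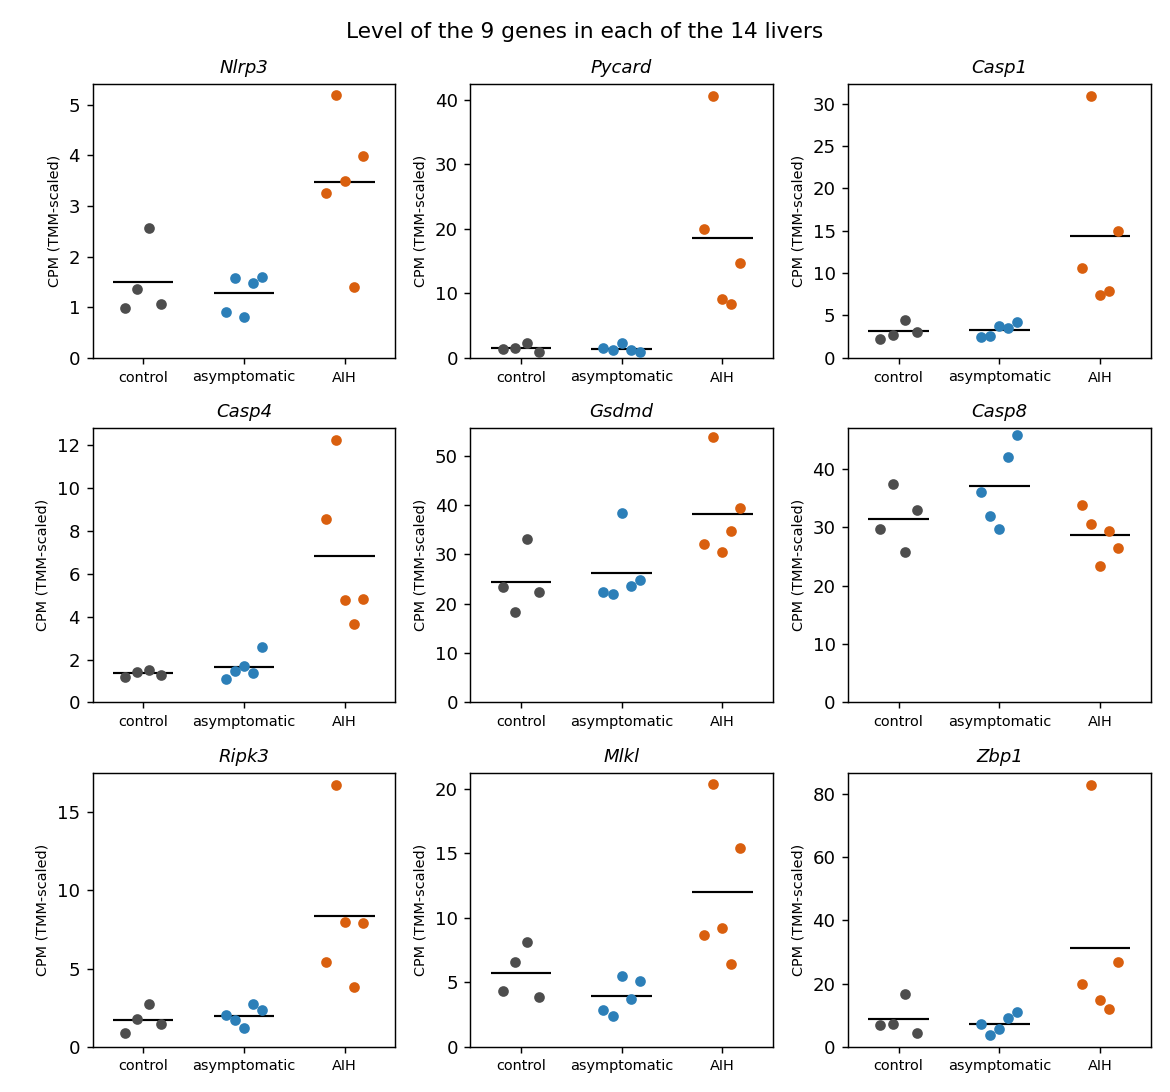
TMM-scaled CPM of each of the 9 genes (vertical axes, linear, from 0) in the 4 control, 5 asymptomatic and 5 AIH livers (1 point per library, left to right by replicate number within a group, bar at the group mean). AIH values of Pycard, Casp1, Casp4 and Ripk3 all lie above every control and asymptomatic value, those of Casp8 overlap with both groups, and AIH 2 is the highest AIH library for 8 of the 9.

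Nlrp3 (chr11:59541568-59566956, plus strand), the sensor of membrane damage and ion flux, had the lowest mean level of the members per kb of longest coding transcript. Its level was 0.994, 1.36, 2.56 and 1.06 CPM in controls 1 to 4, 0.910, 1.59, 0.816, 1.49 and 1.60 CPM in asymptomatic livers 1 to 5, and 3.27, 5.20, 3.50, 1.40 and 3.99 CPM in AIH livers 1 to 5. AIH 1, 2, 3 and 5 lay above all other livers, and AIH 4 fell among the controls. The log2 fold change was 1.21 ± 0.39 against control (adjusted p = 0.0384) and 1.44 ± 0.37 against asymptomatic livers (adjusted p = 0.0096). Against control this call did not hold when any 1 of controls 1, 2 and 4 or AIH 1, 2, 3 and 5 was left out, with adjusted p up to 0.116. AIH 4, the only male AIH liver, also had the lowest summed level of 7 neutrophil markers among AIH livers. It had 19.4 CPM against 88.7 to 1000 in the others and 3.27 to 8.55 in controls. Its sums of monocyte and macrophage (1011 CPM), Kupffer cell (686 CPM) and erythroid markers (213 CPM) were likewise the lowest of the AIH livers. Those of B and plasma cell (628 CPM) and dendritic cell markers (20.5 CPM) were the highest. Whether any of this bears on Nlrp3 was not tested.

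Pycard (chr7:127989708-127993867, minus strand) encodes ASC, the adaptor that links several sensors to caspase-1. Its level was 1.40, 1.53, 2.23 and 0.950 CPM in controls 1 to 4, and 1.5, 1.29, 2.26, 1.16 and 0.931 CPM in asymptomatic livers 1 to 5. AIH livers 1 to 5 had 20.0, 40.5, 9.15, 8.28 and 14.7 CPM. The lowest AIH liver thus stood far above the highest of the other 9 livers, while AIH livers differed among themselves more than the controls did. The log2 fold change was 3.59 ± 0.48 against control (adjusted p = 0.00014) and 3.69 ± 0.44 against asymptomatic livers (adjusted p = 4e-05). It was the only member called against control both in females alone (3.46 ± 0.66, adjusted p = 0.0301) and in males alone (2.79 ± 0.52, adjusted p = 0.0234), where AIH 4 is the single AIH male and its spread is taken from the other groups.

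The inflammatory caspase genes lie next to each other on chromosome 9, Casp1 at chr9:5298517-5307265 and Casp4 at chr9:5308828-5336783, both on the plus strand. Casp1 had 2.22, 2.71, 4.52 and 3.02 CPM in controls, 2.47, 2.53, 3.76, 3.49 and 4.19 CPM in asymptomatic livers, and 10.6, 30.9, 7.46, 7.83 and 15 CPM in AIH livers, each in replicate order. Casp4 had 1.17, 1.41, 1.53 and 1.28 CPM in controls, 1.11, 1.47, 1.69, 1.36 and 2.59 CPM in asymptomatic livers, and 8.55, 12.2, 4.78, 3.64 and 4.85 CPM in AIH livers. For both genes every AIH liver was above every other liver, and AIH 2 was the highest. Casp1 rose by 2.20 ± 0.41 on the log2 scale against control (adjusted p = 0.0016) and by 2.13 ± 0.37 against asymptomatic livers (adjusted p = 0.0008). Casp4 rose by 2.33 ± 0.37 (adjusted p = 0.0005) and 2.05 ± 0.34 (adjusted p = 0.0005). The log2 ratio of Casp4 to Casp1 within a library was -0.94 ± 0.28 in controls (SD, n = 4) and -0.95 ± 0.51 in AIH livers (SD, n = 5), a difference of -0.01 (exact two-sided permutation test, p = 0.984, adjusted p = 0.984).

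Gsdmd (chr15:75862327-75867408, plus strand), the substrate from which caspase-1 and caspase-11 free the membrane pore, was already abundant in control liver. Its level was 23.4, 18.4, 33.2 and 22.3 CPM in controls, 22.4, 22.1, 38.4, 23.7 and 24.7 CPM in asymptomatic livers, and 32.2, 53.9, 30.6, 34.7 and 39.4 CPM in AIH livers. Control 3 and asymptomatic 3 reached into the AIH range, so the groups overlapped. The log2 fold change of 0.65 ± 0.22 against control missed the threshold narrowly (adjusted p = 0.0507), and it passed without control 3 (0.0214) or without AIH 1 (0.0496). It also passed with DESeq2 (0.0362), limma-voom with quality weights (0.0137), library totals as the scale (0.0305), a filter of 1 CPM in 4 libraries (0.0449) and a robust spread (0.0498). Against asymptomatic livers the value was 0.54 ± 0.21 (adjusted p = 0.0646), and without asymptomatic 3 the adjusted p was 0.0144.

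Casp8 (chr1:58795374-58847503, plus strand), the protease that starts apoptosis at death receptors and restrains necroptosis, was not called in any comparison of all 14 libraries. Its level was 29.6, 37.5, 25.8 and 32.9 CPM in controls, 36.1, 32.0, 29.7, 42.0 and 45.8 CPM in asymptomatic livers, and 33.8, 30.5, 23.4, 29.3 and 26.4 CPM in AIH livers. The groups overlapped throughout, with the highest values in asymptomatic livers. The log2 difference of AIH from control was -0.13, with an interval of 2 standard errors from -0.46 to 0.19 (adjusted p = 0.609), and it turned to 0.033 when libraries were scaled by their totals alone. The difference of AIH from asymptomatic livers was -0.37 ± 0.15 (adjusted p = 0.0810), and it passed without asymptomatic 3 (-0.44, adjusted p = 0.0440).

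Ripk3 (chr14:55784995-55788865, minus strand), the necroptosis kinase, had 0.877, 1.75, 2.72 and 1.45 CPM in controls, 2.02, 1.71, 1.19, 2.71 and 2.33 CPM in asymptomatic livers, and 5.43, 16.7, 7.98, 3.80 and 7.93 CPM in AIH livers. The AIH livers did not overlap with the others, and AIH 4 was the lowest of them. The log2 fold change was 2.29 ± 0.43 against control (adjusted p = 0.0018) and 2.07 ± 0.40 against asymptomatic livers (adjusted p = 0.0015). Mlkl (chr8:111311797-111338177, minus strand), whose product RIPK3 turns into the membrane-rupturing effector, had 4.33, 6.56, 8.12 and 3.85 CPM in controls, 2.86, 2.41, 5.52, 3.68 and 5.12 CPM in asymptomatic livers, and 8.69, 20.4, 9.21, 6.43 and 15.5 CPM in AIH livers. AIH 4 lay below 2 controls, and all AIH livers lay above all asymptomatic livers. The log2 fold change was 1.07 ± 0.36 against control (adjusted p = 0.0465) and 1.62 ± 0.34 against asymptomatic livers (adjusted p = 0.0030). Against control the Mlkl call did not hold without any 1 of controls 1, 2 and 4 or AIH 2, 3 and 5, with adjusted p up to 0.140.

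Zbp1 (chr2:173206612-173218923, minus strand), an interferon-inducible sensor of Z-form nucleic acid, had 6.96, 7.35, 16.7 and 4.36 CPM in controls, 7.22, 3.82, 5.65, 8.98 and 11 CPM in asymptomatic livers, and 19.8, 82.8, 14.7, 12.1 and 26.9 CPM in AIH livers. AIH 2 stood far above the other AIH livers, and control 3 lay above AIH 3 and AIH 4. The log2 fold change was 1.82 ± 0.56 against control (adjusted p = 0.0309) and 2.09 ± 0.52 against asymptomatic livers (adjusted p = 0.0082). Without AIH 2 it was 1.07 against control (2.1-fold in place of 3.54-fold) and 1.33 against asymptomatic livers (2.52-fold in place of 4.26-fold). Against control this call did not hold without any 1 of controls 1, 2 and 4 or AIH 2, with adjusted p up to 0.0957.

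The members fell into groups by how far AIH livers lay from controls. Pycard, Casp1, Casp4 and Ripk3 had groups that did not overlap, as did 13.2% of all genes in the higher direction, and were called in the full fit and in each of the 9 fits that left out 1 library, as were 9.95% of all genes. Nlrp3, Mlkl and Zbp1 overlapped with controls, and for each of them AIH 4 lay below control 3. Fitted on the 2 groups alone, these 3 were not called (adjusted p = 0.0680, 0.0679 and 0.0636). Over 13 other settings of this comparison that left out no single library (other scalings, filters, tools, covariates or a sex alone), Pycard was called in 13, Casp4 in 12, Casp1 and Ripk3 in 11, Zbp1 in 8, Nlrp3 and Mlkl in 7, Gsdmd in 5 and Casp8 in 0. Control 3 was the highest control for 8 of the 9 members and also had the highest control level of Ptprc, the common leukocyte antigen CD45, at 29.5 CPM against 12.9 to 15.5 CPM in the other controls. Whether the leukocyte content of control 3 bears on these members was not tested.

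**Figure D2:**
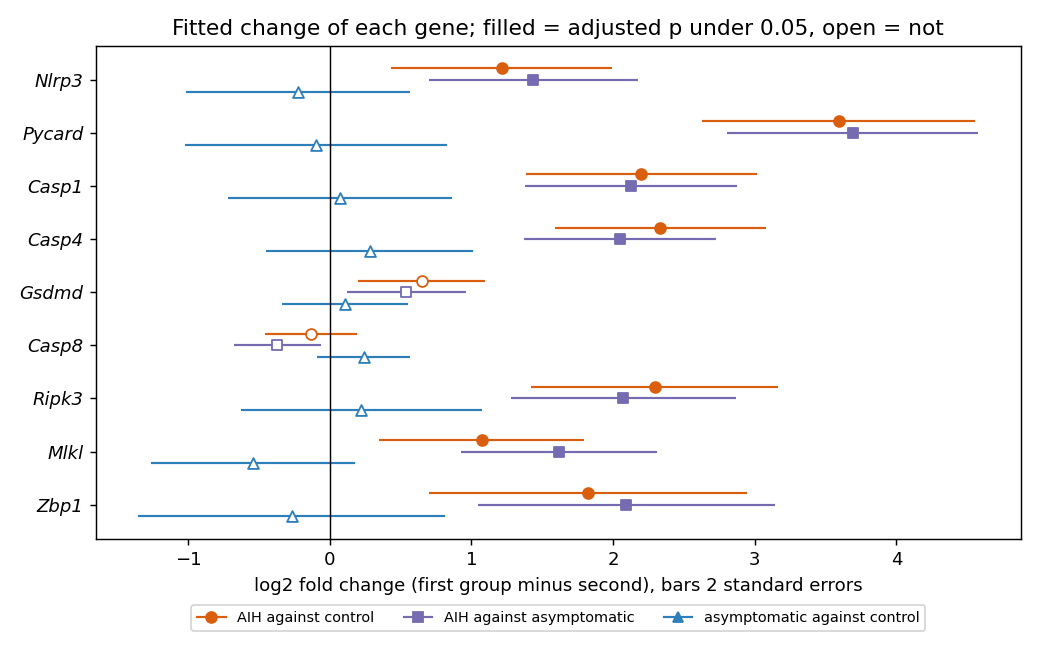
Fitted log2 fold change of each gene (horizontal axis, bars 2 standard errors) in the 3 comparisons, filled where the adjusted p was under 0.05 and open where not. The 7 genes other than Gsdmd and Casp8 are filled in both AIH comparisons, from 1.07 for Mlkl to 3.69 for Pycard, and no gene is filled in asymptomatic against control.

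**Figure D3:**
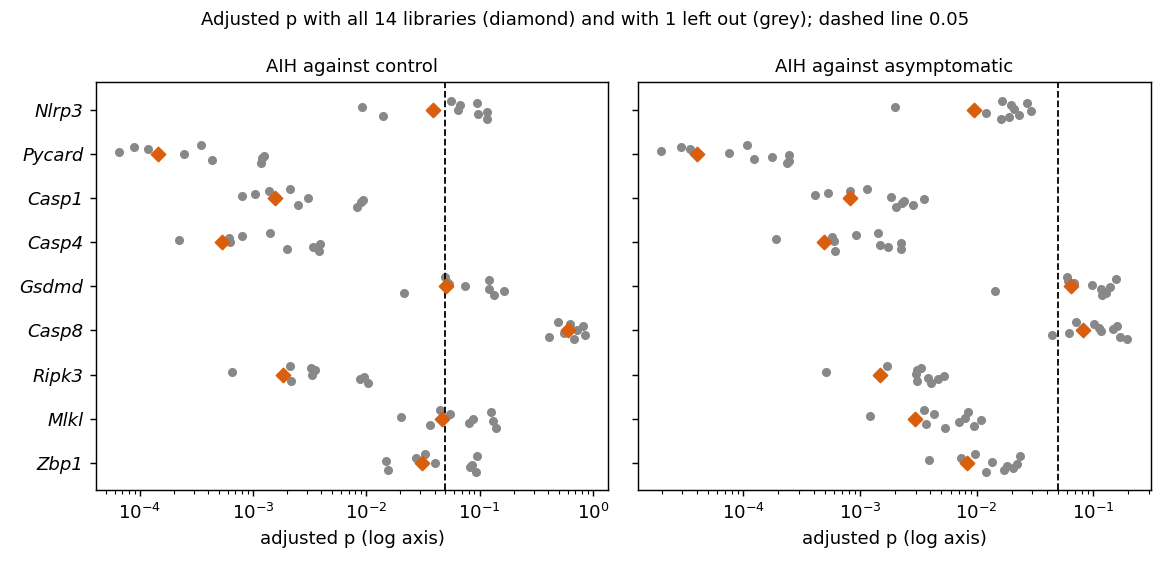
Adjusted p of each gene (horizontal axis, log scale, dashed line at 0.05) with all 14 libraries (diamonds) and with 1 library of the compared groups left out (grey points, 9 fits for AIH against control and 10 for AIH against asymptomatic). In AIH against control the points of Nlrp3, Mlkl and Zbp1 straddle the line, whereas in AIH against asymptomatic they all lie below it.

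Held against asymptomatic livers of the same genotype, the same 7 genes were called higher, beside 29.8% of all genes called in either direction and 19.1% called higher. Of these, 6, all but Nlrp3, had groups that did not overlap (12.3% of all genes), and all 7 were called in each of the 10 fits that left out 1 library (14% of all genes). That includes the fit without asymptomatic 2, the library that resembled a control. The members' median log2 fold change was 2.05, against -0.03 over all genes. This comparison shares its AIH libraries with AIH against control.

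All 5 asymptomatic mice were male and 4 of 5 AIH mice female, and the calls depended on how that was handled. With sex as a term, AIH against control kept Pycard (3.26 ± 0.45, adjusted p = 0.0003), Casp4 (2.1 ± 0.38, adjusted p = 0.0018), Ripk3 (1.96 ± 0.38, adjusted p = 0.0027) and Casp1 (1.96 ± 0.41, adjusted p = 0.0044). In females alone, 4 AIH against 2 controls, Pycard and Casp4 were called (2.34 ± 0.51 for Casp4, adjusted p = 0.0401), and the Ripk3 and Casp1 values of 2.06 and 2.12 were close to those of all mice (adjusted p = 0.0615 and 0.0861). In AIH against asymptomatic, where sex and group overlap in 1 mouse, the sex term left Pycard at 2.81 ± 0.50 (adjusted p = 0.0024) and Casp4 at 1.5 ± 0.44 (adjusted p = 0.0464), and ended the other 5 calls. Those 5 stood at 1.5 for Casp1 (adjusted p = 0.0612), 1.1 for Ripk3 (0.15), 0.94 for Zbp1 (0.379), 0.81 for Mlkl (0.218) and 0.40 for Nlrp3 (0.591), each with a fold lower by over 1.5 times than without the term. The 2 kept genes were also lower with the term, since Pycard stood at 3.69 and Casp4 at 2.05 without it. In males alone, AIH 4 against 5 asymptomatic mice, Pycard was called (2.52 ± 0.41, adjusted p = 0.0076), and the other 8 were not. With the unaligned share as a term, the 4 members with separated groups stayed called against control, and no member was called against asymptomatic livers (Pycard 2.62 ± 0.72, adjusted p = 0.0662).

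Asymptomatic against control gave no call among the 9 members, and none of the 14638 genes was called (0% by adjusted p). At an unadjusted p under 0.05, 0 members and 10.5% of all genes passed in the edgeR fit, while DESeq2 called 118 genes and limma-voom 1299 over all genes at an adjusted p under 0.05, none of them a member. The lowest p among members belonged to Mlkl, with a log2 difference of -0.54 ± 0.36 (adjusted p = 0.605) and an interval of 2 standard errors from -1.26 to 0.18. For Pycard the interval ran from -1.02 to 0.83 around -0.10, and for Casp1 from -0.71 to 0.86 around 0.07. In this fit a 2-fold fall of Mlkl or Pycard therefore lay within its interval and a 2-fold rise did not. The Casp1 interval reached 2-fold in neither direction. Smaller changes either way lay within the Pycard and Casp1 intervals. For Casp8 the interval of -0.09 to 0.56 was narrower. The median over members was 0.07, against -0.0004 over all genes. These intervals take no account of sex or of the unaligned share. All asymptomatic mice were male, whereas controls were of both sexes, and the unaligned share was higher in asymptomatic livers. Pycard stood at 0.45 ± 0.48 with sex as a term and at 0.27 ± 0.40 in males alone. With the unaligned share as a term it stood at 0.75 ± 0.67. A 2-fold rise of Pycard lay within 2 standard errors of each of these values.

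Scaled to the longest coding transcript, levels could be compared between genes. In controls the order, in CPM per kb, was Gsdmd at 13.6 ± 3.5, Casp8 at 12.2 ± 1.9, Zbp1 at 4.44 ± 2.71, Mlkl at 2.85 ± 0.99, Casp1 at 2.08 ± 0.66, Casp4 at 0.939 ± 0.108, Ripk3 at 0.866 ± 0.393, Pycard at 0.402 ± 0.140 and Nlrp3 at 0.371 ± 0.181 (SD, n = 4). Neighbours in this order overlapped, except between Casp8 and Zbp1 and between Casp1 and Casp4. In asymptomatic livers Gsdmd (14.6 ± 3.8) and Casp8 (14.4 ± 2.6, SD, n = 5) again led and Nlrp3 (0.318 ± 0.096) was again last. In AIH livers Gsdmd led at 21.3 ± 5.2, Zbp1 stood at 15.7 ± 14.8 and Casp8 at 11.1 ± 1.5, followed by Casp1 at 9.59 ± 6.50, Mlkl at 6.01 ± 2.86, Pycard at 4.88 ± 3.46, Casp4 at 4.75 ± 2.48, Ripk3 at 4.26 ± 2.54 and Nlrp3 at 0.863 ± 0.343 (SD, n = 5). In that order Ripk3 and Nlrp3 were the only neighbours that did not overlap. Pycard's longest annotated transcript, 3.80 kb, spans nearly its whole gene, and its level by length would be higher on a shorter transcript. All exons of Casp4 together span 3.71 kb and those of Zbp1 3.529 kb, against 1.435 kb and 1.989 kb used here. On that basis both would be lower by length, so the order, with Nlrp3 as last, holds only for the longest coding transcript.

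In ratios between members within a library the scale of the library cancels apart from the pseudocount. Of 6 such ratios, 4 differed between AIH and control livers. The share of other gene pairs that differ in this way was not computed. Casp1, Pycard and Ripk3, the second genes of these ratios, were themselves higher in every AIH liver than in every control. The ratios therefore do not stand apart from the changes of single genes. Divided by Ptprc, which also rose, 80.3% of all genes were lower in AIH than in control livers without overlap. The log2 ratio of Gsdmd to Casp1 was 3.13, 2.55, 2.75 and 2.70 in controls 1 to 4, and 1.56, 0.79, 1.97, 2.08 and 1.37 in AIH livers 1 to 5. Every AIH liver had less Gsdmd per Casp1 than every control, a difference of -1.23 (exact permutation test, p = 0.00794, adjusted p = 0.0238 over 18 tests). The ratio of Nlrp3 to Pycard was -0.35, -0.13, 0.16 and 0.11 in controls and -2.44, -2.85, -1.27, -2.21 and -1.76 in AIH livers, a difference of -2.06 (exact permutation test, p = 0.00794, adjusted p = 0.0238). Every AIH liver thus held less Nlrp3 per Pycard than every control.

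In the necroptosis arm, the log2 ratio of Casp8 to Ripk3 was 4.45, 4.08, 3.03 and 4.10 in controls and 2.53, 0.85, 1.5, 2.79 and 1.67 in AIH livers. The groups did not overlap and differed by -2.04 (exact permutation test, p = 0.0159, adjusted p = 0.0408). The ratio of Mlkl to Ripk3 was 1.81, 1.65, 1.42 and 1.16 in controls and 0.63, 0.28, 0.19, 0.69 and 0.92 in AIH livers, a difference of -0.97 (exact permutation test, p = 0.00794, adjusted p = 0.0238). Of the 5 asymptomatic livers, 4 had a Mlkl to Ripk3 ratio below every control, at 0.42, 0.40, 0.38 and 0.99, whereas asymptomatic 3 had 1.83. Their mean difference from controls, -0.70, did not pass (exact permutation test, p = 0.0873, adjusted p = 0.196). Zbp1 to Ripk3 did not differ detectably between AIH and control (-0.36, exact permutation test, p = 0.341, adjusted p = 0.614).

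Against asymptomatic livers, the ratios of Gsdmd to Casp1 (-1.26), Nlrp3 to Pycard (-2) and Casp8 to Ripk3 (-2.06) were each lower in AIH without overlap (exact permutation test, p = 0.00794, adjusted p = 0.0238 for each). Divided by Ptprc, 80.8% of all genes were lower without overlap in that comparison. The ratio of Mlkl to Ripk3 was not detectably different there (-0.26, exact permutation test, p = 0.508, adjusted p = 0.831). The smallest p that 4 against 5 or 5 against 5 livers can give is 0.00794. With 1 library of the AIH and control groups left out, the smallest possible p is 0.0179 (3 against 5) or 0.0286 (4 against 4). No ratio passed between AIH and control after adjustment in any of those 9 cases. With floors this high, adjustment can fail groups that are still fully separated, so these cases do not tell how firm a ratio is. The differences ranged from -1.36 to -1.04 for Gsdmd to Casp1 and from -2.26 to -1.87 for Nlrp3 to Pycard. They ranged from -2.34 to -1.79 for Casp8 to Ripk3 and from -1.08 to -0.87 for Mlkl to Ripk3.

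**Figure D4:**
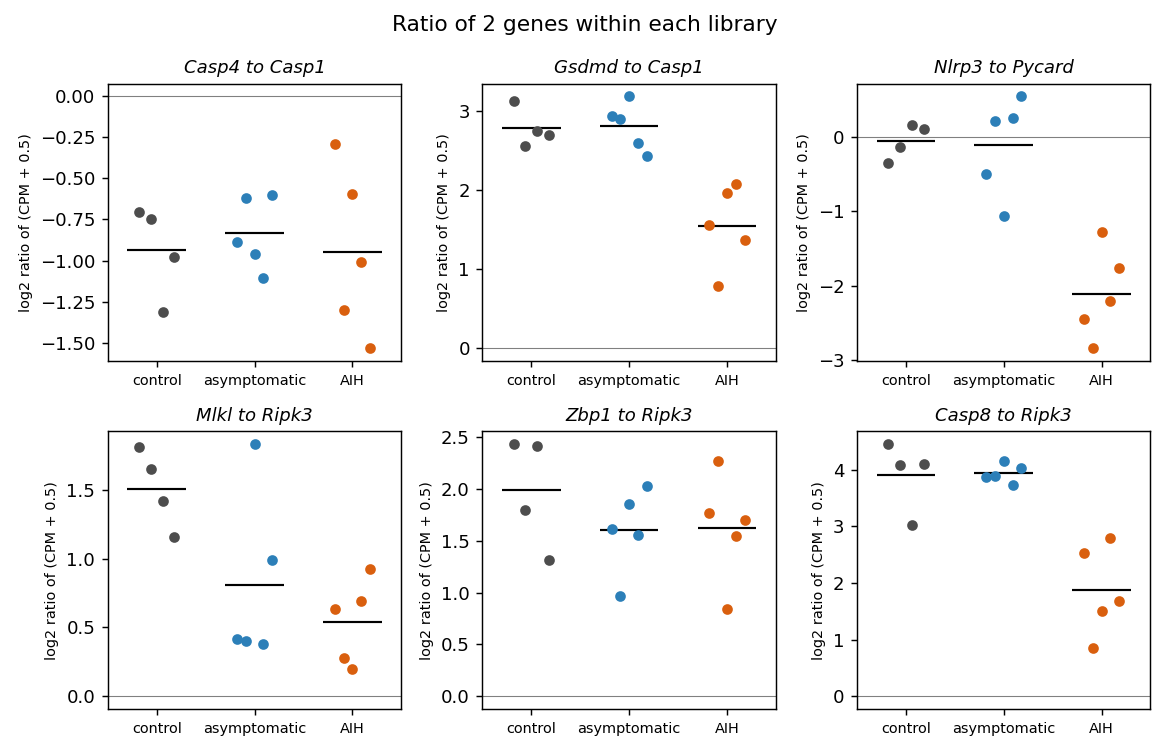
Log2 ratio of 2 genes within each library (vertical axes, CPM plus 0.5, bar at the group mean) for 6 pairs in the control, asymptomatic and AIH livers. AIH points lie below all control points for Gsdmd to Casp1, Nlrp3 to Pycard, Mlkl to Ripk3 and Casp8 to Ripk3, and overlap with them for Casp4 to Casp1 and Zbp1 to Ripk3.

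Leukocyte genes moved with the members. In whole liver, more cells of a type and more RNA per cell cannot be told apart. Ptprc was 12.9, 15.5, 29.5 and 14.6 CPM in controls, 13.8, 21.6, 18.6, 15.3 and 16 CPM in asymptomatic livers, and 117, 131, 72.7, 121 and 144 CPM in AIH livers. It rose by 2.69 ± 0.27 on the log2 scale against control (adjusted p = 2e-05), more than any member but Pycard. All 6 pan-leukocyte markers (summed 677 to 1149 CPM in AIH, 168 to 241 in controls), all 8 monocyte and macrophage markers (1011 to 2359 against 236 to 468) and all 5 Kupffer cell markers (686 to 3274 against 297 to 630) were higher in AIH than in control livers. So were all 6 tested neutrophil markers of 7 (19.4 to 1000 CPM against 3.27 to 8.55, with Ly6g at 0 in every control), 5 of 6 tested T and NK cell markers, 5 of 5 B and plasma cell markers, 3 of 5 dendritic cell markers, 5 of 5 markers of dividing cells and 4 of 5 erythroid markers. Of endothelial, stellate and cholangiocyte markers, 1 of 5 in each list was higher, which is near the background. Over all genes, 15.6% were called higher in AIH against control. None of the 13 lists had a member called between asymptomatic and control livers. Against asymptomatic livers, the same 6 pan-leukocyte, 8 monocyte and macrophage, 5 Kupffer cell and 6 neutrophil markers were higher in AIH, beside 19.1% of all genes. All 6 tested T and NK cell, all 5 B and plasma cell and all 5 dividing cell markers were higher too. Of stellate markers 3 of 5 (Lrat, Dcn and Col1a1) were higher, and of dendritic cell and erythroid markers 2 of 5 each. Endothelial and cholangiocyte lists had 1 of 5 each. There 4 of 8 hepatocyte markers (Apob, Ttr, Serpina1c and Hnf4a) were lower, beside 1559 of all 14638 genes. How far the cells of these lists account for the members' levels was not tested.

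Set against 100 CPM of Ptprc, no member was higher in AIH than in control livers without overlap. Pycard came closest, at 6.82 to 30.9 (median 12.6) in AIH livers and 6.49 to 10.9 (median 8.71) in controls. Casp1 (6.45 to 23.6 against 15.3 to 20.6), Casp4 (3.00 to 9.35 against 5.17 to 9.12), Ripk3 (3.13 to 12.8 against 6.79 to 11.3) and Zbp1 (9.95 to 63.2 against 29.8 to 56.5) overlapped. The other 4 lay lower in every AIH liver than in every control, as did 80.3% of all genes on this scale, where Ptprc itself rose 6.46-fold. Gsdmd was at 27.3 to 42.1 against 113 to 181, Casp8 at 18.3 to 32.2 against 87.5 to 242, Mlkl at 5.30 to 15.5 against 26.3 to 42.3, and Nlrp3 at 1.15 to 4.81 against 7.25 to 8.76. Against asymptomatic livers, Gsdmd and Casp8 were lower without overlap on this scale, as were 80.8% of all genes, and the other 7 members overlapped. Ptprc marks leukocytes only, so this scale describes proportion and not level in a cell.

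**Figure D5:**
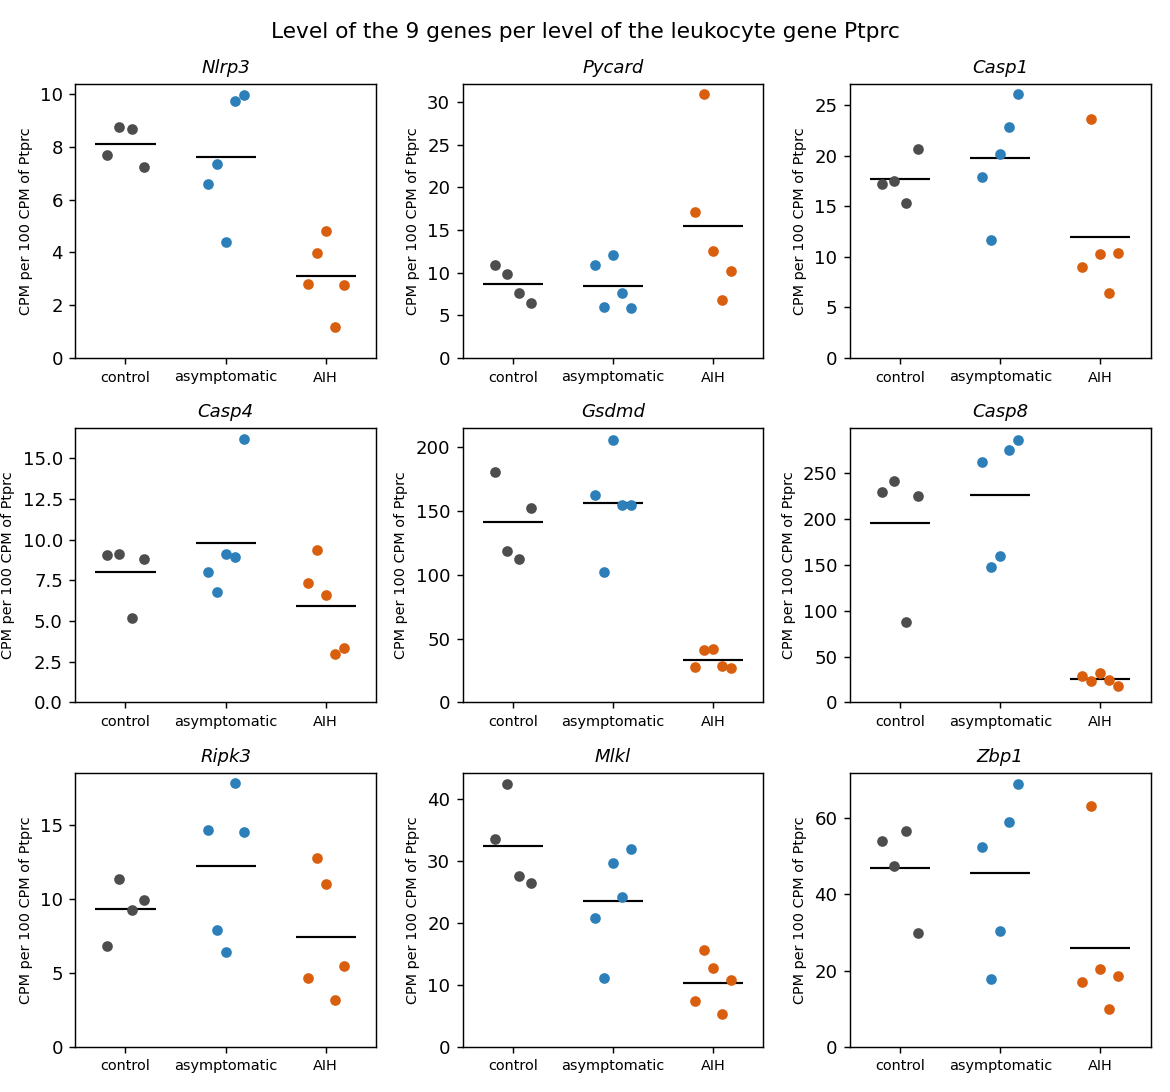
Level of each gene per 100 CPM of Ptprc (vertical axes, linear, from 0) in each library, with bars at the group means. AIH points of Nlrp3, Gsdmd, Casp8 and Mlkl lie below all control points, as for 80.3% of all genes on this scale, and those of the other 5 genes overlap with controls.

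Across the 14 libraries the members other than Casp8 varied together. Pearson correlations of log2(CPM + 0.5) among the 28 pairs without Casp8 were 0.65 to 0.95, and 0.30 to 0.88 when each group's mean was removed. Those correlations describe 14 libraries that share the group difference and, within AIH, the high library AIH 2, which was the highest AIH liver for 8 of 9 members. After removal of group means the closest pairs were Casp1 with Zbp1 (0.88), Nlrp3 with Ripk3 (0.85) and Casp1 with Mlkl (0.85). The 8 pairs with Casp8 had values of -0.52 to -0.27 over all libraries, and of -0.39 to 0.38 with group means removed.

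The search took 12034 annotated genes with a mean of at least 1 CPM, leaving out symbols that are gene models or clone names. Those whose levels over the 14 libraries were most like a member's were found by the same correlation. For Nlrp3 they were Csf3r, the receptor for granulocyte colony-stimulating factor (0.970, and 0.952 with group means removed), and the platelet chemokine gene Ppbp (0.937). For Pycard they were Tnfaip8l2 (0.988) and the adaptor gene Dok1 (0.984), and for Casp1 the high-affinity IgG receptor gene Fcgr1 (0.985) and Evl (0.981). For Casp4 they were Rgs10 (0.972) and Twf2 (0.971), for Ripk3 Nrros (0.980) and Tifab (0.979), and for Zbp1 Anxa3 (0.966) and the sialic acid receptor gene Siglece (0.962). Mlkl was most like Ehbp1l1 (0.961) and Klrk1, which encodes the lymphocyte receptor NKG2D (0.956). Gsdmd was most like Smim24 (0.932) and the MHC class I gene H2-T22 (0.930), and Casp8 most like the translation factor gene Eif2b4 (0.947) and the arginine methyltransferase gene Prmt3 (0.937). All these values include the group difference. With group means removed, they ran from 0.837 for Twf2 with Casp4 to 0.952 for Csf3r with Nlrp3.

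Among 22 other sensors of the inflammasome and their regulators, 20 were tested, and 11 were higher, none lower and 9 not called in AIH against control livers (median log2 fold change 1.08), beside 15.6% of all genes called higher. Nlrc4, which with NAIP proteins detects bacterial flagellin and secretion needles, rose by 2.32 ± 0.40 (adjusted p = 0.0009), and 4 Naip genes were also called. Aim2, a sensor of cytosolic DNA, rose by 2.33 ± 0.27 (adjusted p = 5e-05), the pyrin gene Mefv by 2.24 ± 0.49 (adjusted p = 0.0045) and Nlrp1b by 2.16 ± 0.61 (adjusted p = 0.0211, not held without control 1 or 4). The Naip genes and Nlrp1b have near-identical copies, and reads may have been split or lost among them. Nek7, a kinase that NLRP3 needs, was at -0.22 ± 0.28 (adjusted p = 0.625) and Nlrp6, abundant in control liver at 59.9 to 122 CPM, at -0.44 ± 0.27 (adjusted p = 0.264). Against asymptomatic livers 15 of the 20 were higher and 1, Brcc3, lower (median 1.51), beside 19.1% of all genes called higher.

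Among 19 further genes of pyroptosis, its cytokines and granule proteases, 14 were tested, and 7 were higher and none lower against control (median 1.16), beside 15.6% of all genes called higher. Those called were the cytokine gene Il1b, the IL-18 binding protein gene Il18bp, Casp12, and the granule proteases Elane, Ctsg, Gzma and Gzmb. Il1b was 2.46, 3.45, 11.4 and 2.35 CPM in controls and 8.74, 129, 8.39, 13.8 and 34.8 CPM in AIH livers, with AIH 2 far above the rest and control 3 inside the AIH range. It rose by 2.99 ± 0.80 (adjusted p = 0.0159). That call did not hold without control 1, 2 or 4, and its fold of 7.92 became 3.38 without AIH 2 and 14.1 without control 3. Il18, at 3.79 to 12.2 CPM in controls and 10.8 to 32.6 CPM in AIH livers, did not pass (1.10 ± 0.45, adjusted p = 0.0960). The other pore gene Gsdme, at -0.08 ± 0.51 (adjusted p = 0.933), and Ninj1, which ruptures the membrane after the pore, at 0.03 ± 0.16 (adjusted p = 0.908), were not called. Against asymptomatic livers 9 of 14 were higher and none lower (median 1.76), beside 19.1% of all genes called higher. Il1b was at 3.90 ± 0.78 there (adjusted p = 0.0019), and at 2.67 without AIH 2.

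Of 29 death receptor and necroptosis partners of the members 28 were tested, and 5 were higher and 1 lower against control (median 0.07, against -0.01 over all genes). That count is near the 15.6% of all genes called higher. Tnf rose by 2.41 ± 0.58 (adjusted p = 0.0086), on only 1 to 5 counts per control library and 6 to 30 per AIH library. It was tested, and called, in 7 of the 9 fits with 1 library left out. Tnfrsf1b, Tnfaip3 and Tlr4 were also called higher and the kinase gene Map3k7 lower. Adar, whose product edits the double-stranded RNA that ZBP1 can sense, was called at 0.47 ± 0.15 (adjusted p = 0.0414), a call that did not hold in 8 of the 9 fits with 1 library left out. Ripk1 (-0.17 ± 0.16, adjusted p = 0.497), Fadd (-0.09 ± 0.17, adjusted p = 0.753), Fas (0.01 ± 0.24, adjusted p = 0.981) and Tnfrsf1a (0.51 ± 0.23, adjusted p = 0.127) did not pass, nor did Cflar, the caspase-8 inhibitor cFLIP (-0.66 ± 0.26, adjusted p = 0.0831). Thus Ripk1, Fadd and Cflar, whose products form the complex with caspase-8, were not called, and Ripk3 was. Against asymptomatic livers 7 of 28 were higher and 4 lower (median 0.17). Over all genes, 19.1% were called higher there and 1559 of 14638 lower, so these counts are not far from the background.

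Core apoptosis genes stand beside the lytic routes as a further list. All 26 were tested, and 9 were higher and none lower against control (median 0.38), beside 15.6% of all genes called higher. They included the survival genes Bcl2 (1.81 ± 0.25, adjusted p = 0.0002) and Mcl1 (0.80 ± 0.21, adjusted p = 0.0132, not held without control 2 or 4), as well as Bax, Bak1, Pmaip1, Apaf1 and Casp2, which promote apoptosis, and the survival genes Bcl2a1b and Bcl2a1d, which are near-identical copies. The initiator caspase gene Casp9 (-0.13 ± 0.29, adjusted p = 0.784) was not called. Against asymptomatic livers 8 were higher and 1, Xiap, lower (median 0.40), beside 19.1% of all genes called higher and 1559 of 14638 called lower. In asymptomatic against control none of the 4 lists had a called gene.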

How the data were processed

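Liver RNA of 14 mice was measured in 14 files of raw counts per Ensembl gene, which the authors deposited without normalization. Tools named without roles, per the submitters' processing notes, were HTSeq 0.9.0, HISAT2 2.1.0, R 4.0, edgeR, cutadapt 1.12 and FastQC 0.11.5. GRCm38 and a human build are both named there, and the mouse gene IDs were placed on GRCm38 with GENCODE release M21. The strand setting was not given in the sources used here, so antisense and overlapping genes cannot be told apart, and near-identical copies can share or lose reads. The 5 HTSeq summary rows were left out of totals and tests. They hold, among others, 3.23% to 9.27% of reads not aligned and 28.8% to 37.0% not aligned uniquely.

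Counts of 14638 genes that passed filterByExpr were scaled by TMM and tested with edgeR 4.0.16 (R 4.3.3) in 1 quasi-likelihood fit with a mean per group, for 3 comparisons. Standard errors were derived from the F statistic. Levels are CPM after TMM scaling, and ratios used CPM plus a pseudocount of 0.5 with an exact permutation test, adjusted over 18 tests. The pipeline was tested on simulated data. The alternatives were other scalings and filters, DESeq2 1.42.0, limma-voom 3.58.1, fits with sex or the unaligned share as a term, fits within a sex and each library left out. Every limma-voom fit named here used quality weights, which weight each library by its quality. Depth was 15968380 to 18915729 gene counts per library, and intervals cover the spread between mice only. No 2 libraries of a group agreed within sampling noise (lowest chi-square per gene 15.0). Replicate numbers follow accession order and pair no mice.

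The members and lists were chosen with earlier results of these data known. The named genes are the 9 members, 22 genes of the pathway lists, Ptprc and the 2 genes most like each member; Tet2 was added as the targeted gene. Some of the genes that the rule took are not reported here. Genes listed in counts of 11 or fewer called members were named after their values were seen. Promoters came from RefSeq for 7 members.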

Additional observations from a re-analysis of the deposited data

Results flagged for a closer look

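Of 27 gene and group combinations checked for a single library far from the rest, 2 stood out, and chance marks about 1 in 20. Gsdmd in asymptomatic 3 was 38.4 CPM, against 22.1 to 24.7 CPM in the other asymptomatic livers. Zbp1 in AIH 2 was 82.8 CPM, against 12.1 to 26.9 CPM in the other AIH livers. AIH 2 also had the highest summed monocyte and macrophage markers of the AIH livers, 2359 CPM against 1011 to 1424 in the others. It was likewise highest for the pan-leukocyte (1149 CPM), Kupffer cell (3274 CPM), neutrophil (1000 CPM), erythroid (2489 CPM) and dividing cell (154 CPM) sums. For the hepatocyte, dendritic cell, stellate and cholangiocyte sums it was the lowest AIH liver. The part of any of these in Zbp1 was not tested.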

How the results depend on the processing

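No paired analysis was possible because the replicate numbers were given in accession order and pair no mice. Against control, 7 members were called, 4 with only the 2 groups fitted, with sex as a term or with the unaligned share as a term, 2 in females (839 genes in all) and 1 in males (555). Leaving out 1 library gave 4 to 8. Against asymptomatic livers, 2 members (1372 genes in all) were called with sex as a term, 0 (562) with the unaligned share and 1 (980) in males. Leaving out 1 library gave 7 to 9 members there. In asymptomatic against control, DESeq2 called 118 genes, limma-voom 1299 and the fits without 1 library 0 to 13. The following log2 values turned sign. Casp8 in AIH against control was 0.033 with library totals. In asymptomatic against control, Zbp1 was 0.17 with limma-voom. There Nlrp3, Pycard and Zbp1 were 0.45, 0.45 and 0.48 with sex as a term and 0.31, 0.27 and 0.37 in males, and Nlrp3 and Pycard were 0.47 and 0.75 with the unaligned share. Without 1 library, that comparison ranged from -0.034 to 0.31 for Casp1, -0.35 to 0.17 for Nlrp3, -0.32 to 0.15 for Pycard, -0.47 to 0.24 for Zbp1 and -0.067 to 0.30 for Gsdmd. With a pseudocount of 0.1, the difference was 0.12 for Casp4 to Casp1 in AIH against control, -0.035 for Casp8 to Ripk3 in asymptomatic against control and -0.11 for Zbp1 to Ripk3 in AIH against asymptomatic. Without 1 library, Casp4 to Casp1 ranged from -0.17 to 0.14 in AIH against control, -0.024 to 0.18 in asymptomatic against control and -0.28 to 0.036 in AIH against asymptomatic. In asymptomatic against control, Gsdmd to Casp1 ranged from -0.066 to 0.15, Nlrp3 to Pycard from -0.22 to 0.18 and Casp8 to Ripk3 from -0.28 to 0.20, and Zbp1 to Ripk3 in AIH against asymptomatic from -0.14 to 0.22. Without 1 library, 0 to 0 ratios passed in AIH against control where fewer libraries raise the smallest possible p, and 0 to 3 in AIH against asymptomatic, with 0 without AIH 1, 2, 4 or 5. The cause of the other changes was not tested. Counts of 13 to 107 limit the precision of Nlrp3, and low counts outside AIH limit that of Pycard, Casp4 and Ripk3.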
